A study of Mus musculus with 6 samples.

Results

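A set of 10 genes of mitochondrial fatty acid oxidation was followed in cultured brain ILC2 of young and aged mice, chosen by symbol from a table of 24421 gene rows: Cpt1a, Slc25a20, Cpt2, Acads, Acadm, Acadl, Acadvl, Hadha, Hadhb and Etfdh. All 10 had counts in the 6 libraries and passed the filter on low counts. ILC2, the group 2 innate lymphoid cells, lack rearranged antigen receptors and secrete type 2 cytokines in tissues. They had been sorted by surface phenotype from the brain and grown for 2 weeks in medium holding 20% FCS plus 4 cytokines (IL7, IL2, IL33 and SCF), after which total RNA was extracted. All donor mice were C57BL/6. Mice were 2 to 3 months old for the 3 young libraries and 20 to 22 months old for the 3 aged libraries, and no genotype or treatment is given that sets the groups apart. The values therefore describe cells after expansion with these cytokines, not cells as they left the brain. Whether libraries stand for different mice or cultures is not recorded, so a p-value here reflects variation among libraries that may be purely technical.

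Mitochondrial fatty acid oxidation breaks long-chain fatty acids into acetyl-CoA for the tricarboxylic acid cycle. Carnitine carries the acyl chain across the inner membrane, and each turn of the cycle then removes a 2-carbon unit through a dehydrogenase, a hydratase, a second dehydrogenase and a thiolase. Electrons of the first step pass through the electron transfer flavoprotein to the respiratory chain. ILC2 take up external lipids, and fatty acid oxidation is one of the fuels they are known to use.

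Library totals ran from 16477157 to 20804291 counts. Levels are given in CPM, counts relative to a library total scaled by TMM, a method that takes most genes to be unchanged. A change was called where the quasi-likelihood test of edgeR gave a Benjamini-Hochberg adjusted p under 0.05 over the 11805 genes tested. All 15 ILC2 markers listed had counts in some library, with sums of 13441 to 16472 CPM in young and 13350 to 15815 CPM in aged libraries. Single ILC2 markers moved both ways under that sum: 6 were called lower (Gata3, Il1rl1, Il2ra, Icos, Klrg1 and Il5) and 2 higher (Thy1 and Id2), with Il5 at 5330 and 3228 CPM, Id2 at 3736 and 6509 CPM and Klrg1 at 86.5 and 1.45 CPM in young and aged libraries. Kit was at 0 counts in the 3 aged libraries. Cd3e, Cd79a, Ncr1, Eomes, Tbx21, Csf1r, C1qa, S100a8 and Cdh5 were at 0 counts in all 6 libraries, while other markers of the same cell types had counts. T cell markers (3 of 6 with counts, Lat and Cd3g in every library) summed to 25.2 to 36.9 CPM in young and 25.0 to 44.8 CPM in aged libraries. Mast cell and basophil markers (2 of 5) summed to 228 to 278 CPM in young and 185 to 325 CPM in aged libraries. Of these, Mcpt8 stood at 254.0 and 265.5 CPM and was not called. Dendritic cell markers (4 of 5) summed to 5.13 to 7.24 CPM in young and 6.89 to 12.3 CPM in aged libraries. The sums of 7 further lists did not overlap between groups and are given in the same order, young before aged. Microglia and macrophage markers (7 of 9) lay at 9.25 to 21.7 and at 60.8 to 99.0 CPM, with Tmem119, P2ry12 and Lyz2 called higher and Adgre1 called lower (2.60 and 0 CPM). Neutrophil markers (1 of 4, Cxcr2, called higher) lay at 0.104 to 6.59 and at 43.6 to 71.9 CPM. B cell markers (1 of 5, Cd79b, called higher) lay at 13.7 to 22.9 and at 33.2 to 58.3 CPM. NK cell and ILC1 markers (1 of 5, Klrk1, called higher) lay at 0 to 0.0407 and at 1.52 to 9.29 CPM, and ILC3 markers (2 of 4) at 0 to 3.34 and at 4.38 to 13.7 CPM. Endothelium and stroma markers (4 of 7) lay at 79.6 to 119 and at 126 to 163 CPM: Pecam1 was called higher (86.7 and 150.1 CPM), and Dcn (11.8 and 0 CPM) and Pdgfrb (4.17 and 0.0224 CPM) were called lower. Neuron and glia markers (4 of 7) lay at 21.2 to 36.5 and at 17.4 to 18.4 CPM. Their part in the results below was not tested. In these bulk samples fewer cells of a type and less RNA per cell cannot be told apart.

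Of the 10 enzymes, 3 were lower in aged than in young libraries and none was higher. Acadm, the medium-chain acyl-CoA dehydrogenase, fell to 27.3% of its young level, Cpt1a, the carnitine palmitoyltransferase of the outer membrane, to 39.0% and Hadha, the alpha subunit of the trifunctional protein, to 47.0%. Over all genes tested, 8.14% were called lower and 11.2% called higher, 19.4% in all. The 10 were chosen with earlier results of these data known, so setting them beside all genes is not an independent comparison. The median log2 change of the 10 enzymes was -0.57, beside -0.101 for all genes tested, and 9 of the 10 estimates lay below 0 (10 with library totals alone or with the offsets described next). In 6 of the 10 young and aged libraries did not overlap, all 6 with the lower values in the aged group, where 38.2% of all genes had groups without overlap and 18.8% had them with the lower values in aged. The summed level of the 10 was 785.4, 817.5 and 669.7 CPM in young libraries 1 to 3 and 540.9, 480.3 and 478.2 CPM in aged libraries 1 to 3, so every aged library held less than any young library.

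**Figure D1:**
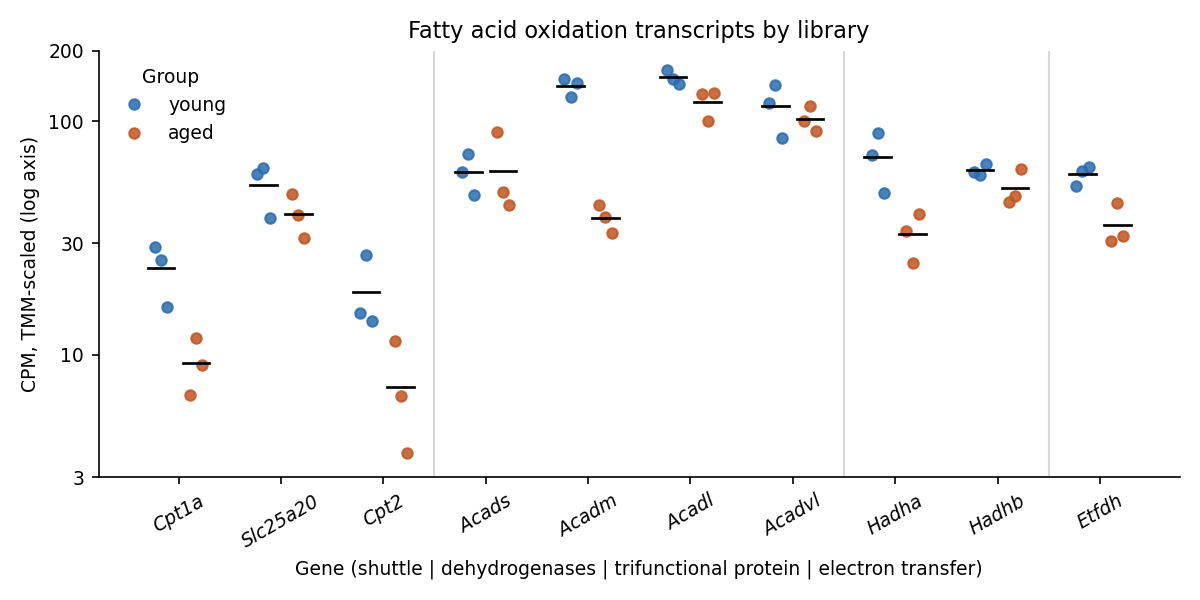
CPM of each enzyme in every library on a log axis, with young libraries in blue, aged libraries in orange and the mean of 3 libraries as a bar. The groups stand apart without overlap for Cpt1a, Cpt2, Acadm, Acadl, Hadha and Etfdh, and mix for Slc25a20, Acads, Acadvl and Hadhb.

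The size of these falls rests on the scaling. Scaled by library totals alone, the median of all genes tested moved from -0.101 to -0.517 and that of the 10 enzymes from -0.57 to -0.996, and 8 of the 10 were called lower, where 20.2% of all genes were. The calls over all genes turned from 1325 higher and 961 lower to 717 higher and 2381 lower. Changes also followed transcript length, when 11356 genes with a known length were cut into 5 classes of like size: the median log2 change was 0.5 in the shortest class and -0.49 in the longest. Cpt1a (4317 bases) and Hadha (4017 bases) sit in class 4, whose median was -0.36 with 10.4% called lower. The other 8 enzymes sit in class 2, whose median was 0.03 with 6.78% called lower. After offsets for transcript length and GC content 1 enzyme, Acadm, was called lower, where 5.44% of all genes were, and the median of the 10 was -0.46 beside 0.076 for all genes.

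**Figure D2:**
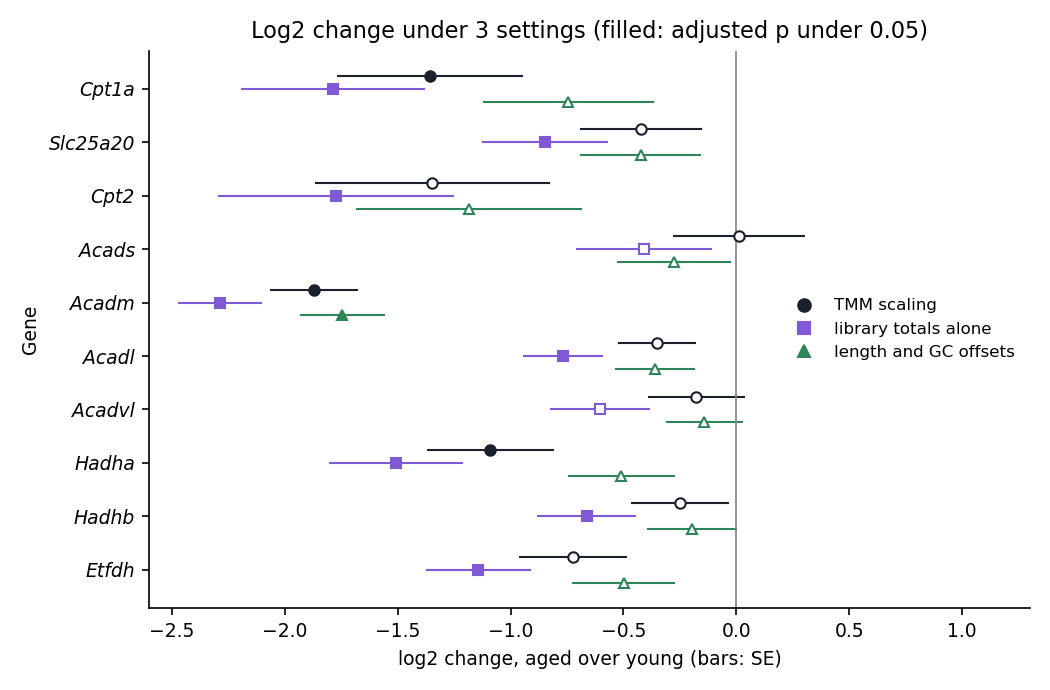
Log2 change of aged over young for each enzyme with TMM scaling, with library totals alone and with length and GC offsets; bars are standard errors and filled symbols passed an adjusted p of 0.05. Acadm is filled under all 3 settings, at -1.87, -2.29 and -1.75, while Cpt1a and Hadha lose the call with the offsets.

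The upstream sequence is shown for the 3 called enzymes, with Hadhb, which shares its stretch with Hadha, and for Acadl, a dehydrogenase that was not called. Sequences are from RefSeq on GRCm38.p6, which gave a start site for all 10, and run 5′ to 3′ on the gene's strand without bases that GENCODE vM21 counts as exon. The Cpt1a stretch lies upstream of its RefSeq start but inside the gene as GENCODE vM21 places it, from chr19:3322334. Capitals mark the letters AGGTCA (the half-site of nuclear receptors such as PPAR and estrogen-related receptors), AAGGTCA (which contains it) or GGGCGG (the GC box), on either strand.
Acadm, chr3:153944644-153944893, minus strand: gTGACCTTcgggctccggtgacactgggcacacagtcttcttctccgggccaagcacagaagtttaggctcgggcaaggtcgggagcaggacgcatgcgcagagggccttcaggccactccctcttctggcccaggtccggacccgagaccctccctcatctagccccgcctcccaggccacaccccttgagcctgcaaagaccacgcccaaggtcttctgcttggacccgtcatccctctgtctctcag
Cpt1a, chr19:3323051-3323284, plus strand: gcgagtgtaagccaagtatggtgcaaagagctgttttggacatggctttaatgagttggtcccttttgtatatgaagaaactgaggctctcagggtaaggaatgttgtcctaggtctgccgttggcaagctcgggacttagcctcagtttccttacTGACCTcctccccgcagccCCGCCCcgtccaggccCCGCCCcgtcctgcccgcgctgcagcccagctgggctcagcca
Hadha and Hadhb, chr5:30155163-30155247, plus strand: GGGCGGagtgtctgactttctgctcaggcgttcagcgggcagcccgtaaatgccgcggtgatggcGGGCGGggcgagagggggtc
Acadl, chr1:66863310-66863559, minus strand: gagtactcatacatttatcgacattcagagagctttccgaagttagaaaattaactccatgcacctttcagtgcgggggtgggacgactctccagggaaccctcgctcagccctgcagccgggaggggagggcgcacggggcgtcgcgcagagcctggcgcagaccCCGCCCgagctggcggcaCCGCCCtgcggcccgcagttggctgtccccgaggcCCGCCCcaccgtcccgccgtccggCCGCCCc
AGGTCA lay within 250 bases upstream of the start in 3 of the 10 enzymes, Acadm, Acadvl and Cpt1a, and in 14.0% of all 32851 start sites in the table. AAGGTCA lay in Acadm alone, 249 bases upstream, and in 4.08% of all. GGGCGG lay in 7 of the 10 and in 32.7% of all start sites, whether or not the gene had counts here. The match of Hadha is the same stretch as a match of Hadhb, so these genes do not count separately. GGGCGG is absent from this window in Acadm, Acadvl and Etfdh. TCAAGGTCA, the full estrogen-related receptor element, and direct repeat 1 of the half-site lay in none of the 10, and in 0.387% and 0.0335% of all. The palindromic NRF1 site lay in Etfdh (0.782% of all), and CCGGAAG, an ETS site, in Cpt2 and Slc25a20 (6.91% of all). All these matches were sought in the full 250 bases, also where GENCODE vM21 counts them as exon. In Etfdh the whole window is such exon. Hadha and Hadhb are transcribed away from each other, and in GENCODE vM21 85 bases separate them. These matches describe letters, not bound sites.

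In GENCODE vM21 (GRCm38) all 10 are protein-coding genes. The shuttle genes are Cpt1a (chr19:3322334-3385733, plus strand), Slc25a20 (chr9:108662088-108684641, plus) and Cpt2 (chr4:107903981-107923610, minus). The dehydrogenases are Acads (chr5:115110299-115119346, minus), Acadm (chr3:153922357-153944632, minus), Acadl (chr1:66830839-66863277, minus) and Acadvl (chr11:70010183-70015411, minus). Hadha (chr5:30118304-30155162, minus), Hadhb (chr5:30155248-30184593, plus) and Etfdh (chr3:79603788-79629500, minus) complete the set.

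The carnitine shuttle moves long acyl chains into the matrix. Cpt1a makes the acylcarnitine and is the step that malonyl-CoA inhibits. Cpt1a stood at 29.0, 25.6 and 16.1 CPM in young libraries 1 to 3 and at 6.76, 11.8 and 9.02 CPM in aged libraries 1 to 3. The groups did not overlap, and young library 3 lay nearest to the aged ones. The log2 change of Cpt1a was -1.36, with an SE of 0.41 (adjusted p = 0.0404, edgeR). That call ended with the length and GC offsets (log2 change of -0.74, adjusted p = 0.234). Leaving out 1 library ended it as well for young 1 (adjusted p = 0.187), young 2 (0.130), aged 1 (0.09998) and aged 3 (0.0813), while the log2 change stayed between -1.58 and -1.16.

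Slc25a20 is the carrier that exchanges acylcarnitine for carnitine across the inner membrane. Its level was 59.3, 62.8 and 38.5 CPM in young libraries 1 to 3 and 48.7, 39.5 and 31.6 CPM in aged libraries 1 to 3. Here young library 3 fell among the aged values, and the log2 change of -0.42 ± 0.27 (SE) did not pass (adjusted p = 0.331, edgeR). Cpt2, the inner-membrane enzyme that restores the acyl-CoA, had 15.2, 26.7 and 13.9 CPM in young libraries 1 to 3 and 11.5, 6.67 and 3.81 CPM in aged libraries 1 to 3. The groups did not overlap, and both had a wide spread. Its log2 change was close in size to that of Cpt1a, at -1.35 ± 0.52 (SE), but did not pass (adjusted p = 0.0986, edgeR). Without aged library 1 it passed, at -1.83 (adjusted p = 0.0493), and without young library 2 it was -0.98 (adjusted p = 0.370). With library totals alone it passed too (-1.77, adjusted p = 0.0303), and these are the ends of the range over its alternatives.

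Cpt1a is in length class 4 and Cpt2 in class 2, so a ratio between them can carry the trend with transcript length. With the length and GC offsets the log2 change was -0.74 for Cpt1a and -1.18 for Cpt2. The log2 ratio of Cpt1a to Cpt2 counts within a library does not depend on library scaling. It was 0.94, -0.06 and 0.21 in young libraries 1 to 3 and -0.76, 0.82 and 1.24 in aged libraries 1 to 3. The means were 0.36 ± 0.52 for young and 0.43 ± 1.06 for aged (SD, 3 libraries a group, two-sided exact permutation p = 1.0, adjusted over 3 ratios 1.0). The sign of that difference changed when single libraries were left out, with differences of -0.33 to 0.67.

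The 4 acyl-CoA dehydrogenases catalyse the first oxidation of each turn and differ in the chain length they prefer, from short (Acads) through medium (Acadm) and long (Acadl) to very long (Acadvl). Acadm was the enzyme with the widest gap between ages. It stood at 151.3, 126.4 and 145.5 CPM in young libraries 1 to 3 and at 43.7, 38.9 and 33.2 CPM in aged libraries 1 to 3. The young libraries lay close together and far above all aged ones. Its log2 change was -1.87, with an SE of 0.19 (adjusted p = 9.474e-05, edgeR), from 8870 counts in the young libraries together to 1759 in the aged. It passed under all 14 alternatives, at -2.29 to -1.75, with an adjusted p of at most 0.001665. No exon of Acadm overlaps another annotated gene, and no other transcript in GENCODE vM21 matched it over 75 bases at 95% identity or more.

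Acadl stood at 165.2, 152.0 and 144.8 CPM in young libraries 1 to 3 and 130.6, 100.1 and 131.5 CPM in aged libraries 1 to 3. The groups did not overlap, yet the log2 change of -0.35 ± 0.17 (SE) did not pass (adjusted p = 0.190, edgeR). Acadvl had 120.0, 142.6 and 84.5 CPM in young libraries 1 to 3 and 100.6, 116.2 and 90.5 CPM in aged libraries 1 to 3. The lowest value of the 6 was a young library, and the log2 change was -0.18 ± 0.22 (SE; adjusted p = 0.640, edgeR). Exons of Dvl2 on the opposite strand cover 42.9% of the exon length of Acadvl, so its counts are uncertain. Acads had 60.7, 72.5 and 48.2 CPM in young libraries 1 to 3 and 89.6, 49.97 and 43.7 CPM in aged libraries 1 to 3. The highest and the lowest value were both aged libraries, and the log2 change was 0.01 ± 0.29 (SE; adjusted p = 0.981, edgeR). Its sign turned with library totals alone (-0.41), with the length and GC offsets (-0.275) and without aged library 1 (-0.37), and none of these passed.

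The mitochondrial trifunctional protein carries out the later steps for long chains: Hadha holds the hydratase and dehydrogenase activities and Hadhb the thiolase. Hadha stood at 71.5, 88.9 and 49.4 CPM in young libraries 1 to 3 and 33.9, 24.8 and 39.95 CPM in aged libraries 1 to 3. The groups did not overlap, with young library 3 again nearest to the aged group. The log2 change of Hadha was -1.09, with an SE of 0.28 (adjusted p = 0.0198, edgeR). The call ended with the length and GC offsets (-0.51, adjusted p = 0.193) and when young 1 (adjusted p = 0.07685), young 2 (0.0970) or aged 2 (0.0770) was left out, within -1.26 to -0.86 when single libraries were left out.

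Hadhb had 60.4, 58.9 and 65.4 CPM in young libraries 1 to 3 and 45.0, 47.9 and 62.6 CPM in aged libraries 1 to 3. Aged library 3 lay within the young range, and the log2 change of -0.25 ± 0.22 (SE) did not pass (adjusted p = 0.494, edgeR). The annotated genes Gm13910 and Gm9108 match Hadhb over 1428 and 1426 bases at 99.8% and 97.6% identity, so its counts are uncertain where reads were shared. Hadha is in length class 4 and Hadhb in class 2, so their ratio can also carry the trend with transcript length. With the length and GC offsets the log2 change was -0.51 for Hadha and -0.20 for Hadhb. The log2 ratio of Hadha to Hadhb counts was 0.24, 0.59 and -0.41 in young libraries 1 to 3 and -0.41, -0.95 and -0.65 in aged libraries 1 to 3. All aged ratios lay below the young ones, by a narrow margin between young library 3 and aged library 1. The mean went from 0.14 ± 0.51 to -0.67 ± 0.27 (SD, 3 libraries a group, two-sided exact permutation p = 0.1, which is the minimum for 3 against 3, and 0.15 adjusted over 3 ratios), so this test could not pass the threshold at any size of difference.

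Etfdh passes electrons from the electron transfer flavoprotein to ubiquinone. It stood at 52.8, 61.05 and 63.4 CPM in young libraries 1 to 3 and at 30.7, 44.5 and 32.3 CPM in aged libraries 1 to 3. The groups did not overlap, and the log2 change of -0.72 ± 0.24 (SE) lay just outside the threshold (adjusted p = 0.0578, edgeR). It passed with limma-voom (-0.74, adjusted p = 0.0462), with library totals alone (-1.14, adjusted p = 0.00598) and without aged library 2 (-0.91, adjusted p = 0.0488). Over its alternatives the adjusted p ran from 0.00598 to 0.183.

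Levels of different genes were compared per kilobase of the longest protein-coding transcript. In young libraries Acadl was highest at 80.4 ± 5.40 CPM per kilobase (mean ± SD, n = 3), followed by Acadm at 68.9 ± 6.34, Acadvl at 53.4 ± 13.5, Acads at 32.3 ± 6.497, Hadhb at 30.1 ± 1.67, Slc25a20 at 30.02 ± 7.37, Etfdh at 24.9 ± 2.34, Hadha at 17.4 ± 4.93, Cpt2 at 7.84 ± 2.97 and Cpt1a at 5.46 ± 1.56. Neighbours in that order overlapped in range except Acadl and Acadm, Acadvl and Acads, Etfdh and Hadha, and Hadha and Cpt2. In aged libraries Acadl had the highest mean at 63.0 ± 9.34 CPM per kilobase, with a range that overlapped that of Acadvl (47.2 ± 5.96), and both transferases had the lowest means, at 3.08 ± 1.63 for Cpt2 and 2.13 ± 0.583 for Cpt1a. Acadm moved from place 2 to place 6, at 18.8 ± 2.57 CPM per kilobase, a level whose range overlapped those of Slc25a20 and Etfdh beside it. Of all neighbours in the aged order, Etfdh and Hadha, and Hadha and Cpt2, did not overlap. With the summed exon length of all transcripts in its place, Acadm went from place 3 to place 4, since that length is 3913 bases against 2047 for the transcript. Etfdh, Hadha and Cpt2 then had young means of 7.88, 8.01 and 7.78 CPM per kilobase, and aged means of 4.78, 3.77 and 3.06. The young order of Etfdh and Hadha thus turned, and the gaps around Hadha depend on the length used.

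**Figure D3:**
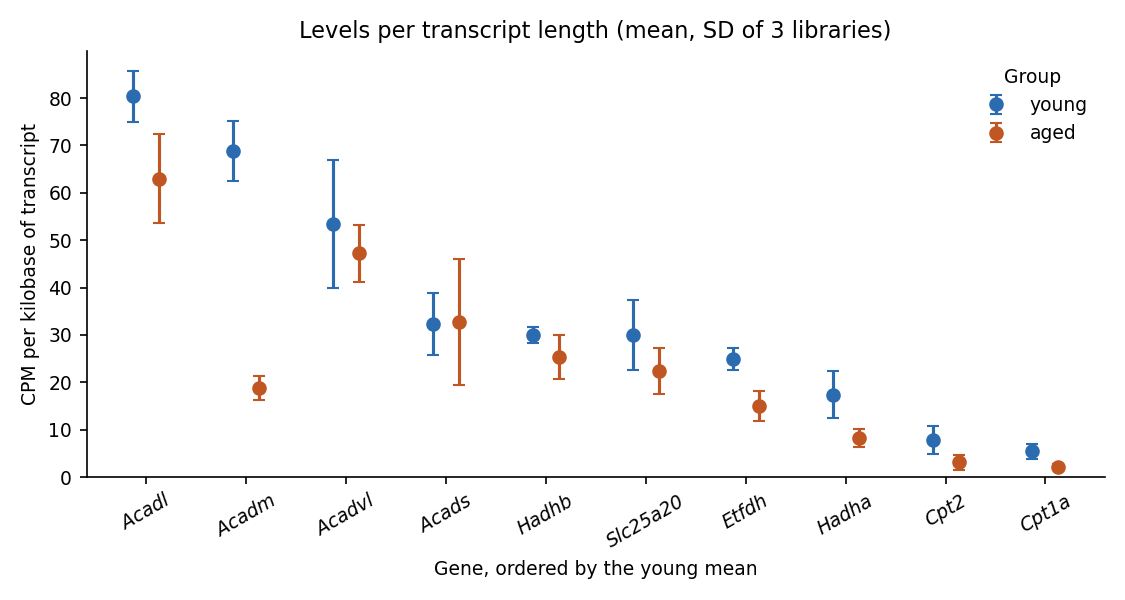
Mean level per kilobase of transcript with the SD of 3 libraries as bars, young in blue and aged in orange, in the order of the young means. The dehydrogenases Acadl, Acadm and Acadvl lead in young libraries, and Acadm drops to 18.8 CPM per kilobase in aged libraries.

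The 5 genes outside the 10 that were nearest to their shared profile, the mean of their standardised log2 CPM, over the 6 libraries were Anapc1 (Pearson r of 0.998), Cttn (0.998), Eif3b (0.996), Med24 (0.996) and Irs2 (0.995), each called lower in aged libraries. Such likeness was common, since 534 of 10787 genes compared had an r above 0.9, and the 6 points share their group structure.

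Of 30 further genes of the mitochondrial pathway 25 were tested, 2 rose and none fell, and their median log2 change was -0.06. The counts of this list and of those below stand beside 11.2% called higher and 8.14% called lower over all genes tested. Etfb, a subunit of the electron transfer flavoprotein that hands electrons to Etfdh, rose from 282.0 ± 16.9 to 403.8 ± 30.1 CPM (SD, n = 3 each), by 0.52 on the log2 scale (adjusted p = 0.0187, edgeR). Mcee, an epimerase that serves odd-chain fatty acids, rose from 12.6 ± 3.77 to 28.5 ± 2.77 CPM (adjusted p = 0.0401). Both calls ended with library totals alone (log2 changes of 0.10 and 0.76) and with the length and GC offsets (-0.24 and 0.59), and the call of Mcee ended whichever single library was left out while that of Etfb ended without young library 1 or 2 or aged library 2. Exons of other annotated genes on the same strand (Gm45233 and Mir7051) cover 58.2% of the exon length of Etfb, so its counts, and its ratio to Etfa, are uncertain. Etfa, the partner of Etfb, stood at 150.7 ± 13.1 and 175.8 ± 16.5 CPM and did not pass. The log2 ratio of Etfa to Etfb was -0.91 ± 0.04 for the young and -1.20 ± 0.07 for the aged group, without overlap (SD, 3 libraries a group, two-sided exact permutation p = 0.1, the smallest possible, and 0.15 adjusted over 3 ratios). This test could not pass the threshold at any size of difference. Etfa (1392 bases, 45.0% GC) and Etfb (893 bases, 57.1% GC) differ in length and GC content, so their ratio can also carry trends with these.

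Activation and carnitine genes gave no call among 8 tested, with a median log2 change of -0.36. Crat, which makes acetylcarnitine, had the smallest p, at 25.5 ± 1.87 and 8.52 ± 6.07 CPM in young and aged libraries (adjusted p = 0.0885, edgeR). Crat passed in DESeq2 (log2 change of -1.55, adjusted p = 0.0380), in limma-voom (-1.98, 0.0259), with library totals alone (-1.99, 0.0344) and without a filter (-1.58, 0.0483), and its adjusted p reached 0.255 with the offsets. Acsl5, which activates long-chain fatty acids, stood at 122.6 ± 33.1 and 82.2 ± 19.2 CPM (log2 change of -0.58, adjusted p = 0.124), and its sign turned with the length and GC offsets (0.05). Cpt1b, the muscle isoform, had 1 count in the 6 libraries together, and Cpt1c, the brain isoform, stood at 10.2 ± 6.13 and 2.34 ± 2.04 CPM without passing (adjusted p = 0.189). Of 14 tested genes of the separate peroxisomal pathway none passed, with a median of -0.21. Ehhadh, a bifunctional enzyme of that pathway, had the smallest p (30.8 ± 7.22 and 14.0 ± 6.60 CPM, adjusted p = 0.0865), followed by the thioesterase Acot8 (36.3 ± 4.07 and 55.9 ± 13.1 CPM, adjusted p = 0.113).

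Among 12 tested genes of a list of nuclear receptors, coactivators, corepressors and other regulators, 2 fell and none rose. Over all genes tested 8.14% were called lower and 11.2% higher. The median log2 change of the 12 was -0.09. Ppara, the receptor best known for driving fatty acid oxidation genes in liver, had 0 counts in the 6 libraries. Pparg stood at 187.4 ± 12.7 and 174.7 ± 32.2 CPM in young and aged libraries (log2 change of -0.10, adjusted p = 0.746), and Esrra at 25.8 ± 5.57 and 19.6 ± 2.86 CPM (adjusted p = 0.450). Ncor1, a corepressor of nuclear receptors, fell from 150.3 ± 12.4 to 78.8 ± 6.79 CPM (adjusted p = 0.003117), and Pprc1, a relative of the coactivator PGC-1, from 45.2 ± 20.7 to 17.5 ± 8.25 CPM (adjusted p = 0.0431). Both transcripts are in the longest class, and both calls ended with the length and GC offsets (log2 changes of -0.03 and -0.79). That of Pprc1 also ended when any single library other than aged library 3 was left out.

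None of 8 tested genes of malonyl-CoA and AMPK control passed. Prkag2, an AMPK subunit, had the smallest p (13.9 ± 6.08 and 3.00 ± 2.29 CPM, adjusted p = 0.0702), followed by Sirt3, a mitochondrial deacetylase of oxidation enzymes (12.6 ± 6.56 and 29.1 ± 8.46 CPM, adjusted p = 0.0949). Both passed in DESeq2, at log2 changes of -2.19 (adjusted p = 0.0213) and 1.23 (0.0466). The range of adjusted p across alternatives was 0.0213 to 0.252 for Prkag2 and 0.04165 to 0.245 for Sirt3. Acaca, which makes malonyl-CoA, stood at 7.02 ± 2.28 and 7.46 ± 1.54 CPM. Acacb, of the same list, had 4 counts, all in aged library 1, and was not tested. Of 4 tested PPAR targets outside the cycle 2 rose and none fell, where 11.2% of all genes tested were called higher and 8.14% lower. Fabp4, a fatty acid binding protein, rose from 5.67 ± 6.58 to 154.7 ± 23.5 CPM (adjusted p = 0.0006721, log2 change of 4.78), and Angptl4, an inhibitor of lipoprotein lipase, from 19.8 ± 2.08 to 49.8 ± 19.8 CPM (adjusted p = 0.0134). Young library 3 held most of the young counts of Fabp4, at 13.3 CPM against 1.82 and 1.91 CPM, and without it the log2 change was 6.39. The call of Angptl4 ended with library totals alone (log2 change of 0.91) and without young library 1 (1.26) or aged library 2 (0.96). Plin2, the coat protein of lipid droplets, stood at 909.6 ± 102.3 and 934.5 ± 65.6 CPM without passing. Of 10 tested genes of uptake and lipolysis 1 passed, where 19.4% of all genes tested did. It was Fabp5, another fatty acid binding protein, which rose from 2454 to 11758 ± 763 CPM (adjusted p = 1.985e-06, edgeR).

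**Figure D4:**
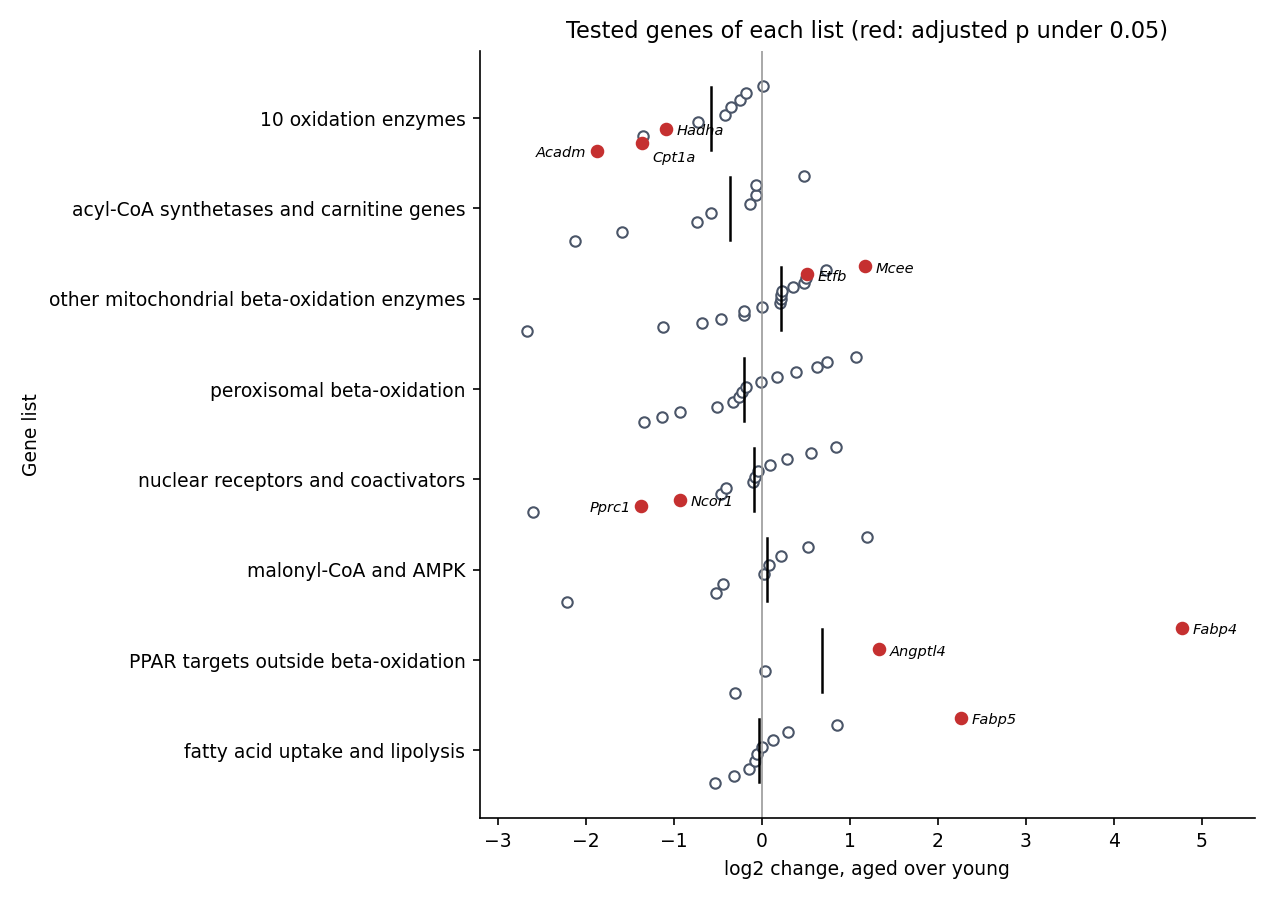
Log2 change of every tested gene in the 10 oxidation enzymes and 7 further lists, with a black bar at each list's median and red for an adjusted p under 0.05. Red points lie at or below -1.09 for the 10 enzymes, below 0 for Ncor1 and Pprc1, and above 0 in the other mitochondrial enzymes (Etfb, Mcee), among PPAR targets (Fabp4, Angptl4) and in uptake (Fabp5).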

How the data were processed

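The authors deposited whole-number raw counts for each gene symbol, and a column was tied to its sample by the name in the sample's description. Per the submitters' processing notes the tools were DESeq2 1.1, Cufflinks 2.0, STAR 2.5.3a, FastQC 1.0.0 and bcl2fastq 2.20.0.422, and mm10 was the genome build; no roles are stated. Which tool counted reads, on what annotation and with what strand setting, is not given in the sources used here, so reads of overlapping genes on opposite strands cannot be told apart.

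Counts were fitted in R 4.3.3 with edgeR 4.0.16 (filterByExpr with minimum count 10 and total 15, TMM, glmQLFit, glmQLFTest), aged against young, which kept 11805 genes. Standard errors are the log2 change divided by the root of F. In counts simulated for this design the test returned the fold changes put in, but most genes changed 2-fold were not called. A gene that did not pass may therefore still differ. The simulated counts held no difference in scaling between groups and no trend with transcript length, so they do not check the estimates against either. Alternatives were DESeq2 1.42.0, limma-voom (limma 3.58.1), RLE factors, library totals, no filter, 1 CPM in 3 libraries, a replicate block, offsets from a smooth on transcript length and GC content (mgcv 1.9.3), and each library left out. Lengths are of the longest GENCODE vM21 transcript (GRCm38), protein-coding where the gene had such a transcript, found for 96.2% of tested genes. Ratios within a library were tested by exact permutation over 20 arrangements.

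The 10 enzymes and the lists were chosen with earlier results of these data known. Of each further list, the genes past the threshold are named (at most 6), or the 2 with the smallest p, and likeness names the 5 genes of highest r. Other list genes were named after their values were seen: Etfa, Cpt1b, Cpt1c, Ppara, Pparg, Esrra, Acaca, Acacb and Plin2. The summed exon length was added as an alternative after the data were seen. Mmut was matched to its older symbol Mut.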

Additional observations from a re-analysis of the deposited data

How the results depend on the processing

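Acadm kept its call under all 14 alternatives. The number of the 10 enzymes called lower went from 3 to 8 with library totals alone, to 1 with the length and GC offsets, and to 1 to 3 with single libraries left out. It was 1 without young library 1 and 1 without young library 2, Acadm in each case. None was called higher under any alternative. With a replicate block the number called lower was 1, with Cpt1a at -1.35 (adjusted p = 0.0735) and Hadha at -1.07 (0.0531). Same-numbered libraries deviated from their group means with correlations of 0.02, 0.009 and 0.041, so the numbers were not taken to pair samples.

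Acads turned sign with library totals alone (-0.41), limma-voom (-0.057), the replicate block (-0.040), the offsets (-0.275), and without young library 3 (-0.09) or aged library 1 (-0.37), and ran from -0.37 to 0.21 with single libraries left out. Acadvl ran from -0.33 to 0.015, the last without young library 2. The Cpt1a to Cpt2 ratio difference ran from -0.33 to 0.67 with single libraries left out, at -0.14, -0.0027, -0.12 and -0.33 without young library 2, young library 3, aged library 2 and aged library 3. The offsets turned Etfb (-0.24) and Acsl5 (0.050). The cause was not tested.

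With library totals alone all genes gave 717 higher and 2381 lower. Single libraries left out gave 915 to 1344 higher and 399 to 849 lower, with 399 without young library 1 and 480 without young library 2. The further mitochondrial genes gave 2 higher and 0 lower. They gave 0 and 4 with library totals, 1 and 0 with the replicate block, 1 (Acat1) and 0 with the offsets, 2 lower with DESeq2 and with limma-voom, 1 lower without a filter, and 0 to 1 in each direction with single libraries left out. Peroxisomal genes gave 3 lower with library totals, 1 higher without a filter and 0 to 1 higher with single libraries left out. The list of receptors and other regulators, 2 lower, gave 4 lower with library totals and 1 lower with the replicate block. It gave 0 lower and 1 higher (Tfam) with the offsets, and 1 to 2 lower with single libraries left out. Malonyl-CoA and AMPK genes gave 1 lower with library totals, 1 higher and 1 lower with DESeq2, 1 higher with the replicate block and 1 lower without a filter. PPAR targets gave 1 higher and 1 lower with library totals and 1 to 2 higher with single libraries left out. Uptake and lipolysis gave 1 lower with library totals. At the lowest levels counts limit precision, with 332 counts of Cpt2 and 419 of Cpt1a in the aged libraries together.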
